A study of Mus musculus with 12 samples.

Results

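The genes described here are 49 genes of male meiosis and of spermatids, followed in the vas deferens of Hox mutant mice. They were chosen by gene symbol, with earlier results of these data known, out of 31669 genes with a value in each male library. The list holds 19 meiotic, 19 round spermatid and 11 late spermatid genes. Its counts, set beside shares of all genes below, describe the list and are not a test. Sperm are made in the testis, where spermatocytes pass through meiosis, become round spermatids, and are reshaped into late, elongating spermatids and then sperm. Germ cells in meiosis pair and recombine their chromosomes, round spermatids build the acrosome, and late spermatids replace their histones by transition proteins and then by protamines while the tail is assembled. The vas deferens makes no germ cells. It is the muscular duct that carries sperm from the tail of the epididymis, so that germ-cell RNA in this tissue is usually that of cells in its lumen.

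RNA sequencing covered 12 libraries of adult CD1/129 mice aged 3 to 7 months, with the RNA of 3 animals pooled in each. The vas deferens was sampled in Hoxa9,10,11-/- males (called Hoxa-null here), in Hoxa9,10,11-/-d9,10,11+/- males (compound Hoxa-null), in Hoxd9,10,11-/- males (Hoxd-null), in Hoxa9,10,11+/-d9,10,11-/- males (compound Hoxd-null) and in wild-type (WT) males. The caudal epididymis came from WT males, and the other 6 libraries came from the uterus and oviduct of females with the same genotypes. All mutations are in the whole animal as far as the labels say, the kind of mutant allele is not given, and whether the lumen of the duct was flushed before extraction is not given either. Each tissue and genotype is represented by a single library, so that no spread between replicates could be estimated, no difference was tested, and each comparison is one of a pair of libraries.

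The deposited values are log2 values centred on each gene's median over the 6 male libraries. The low values lie on steps of whole reads and simple fractions of a read, from which the level of 41 of the 49 genes could be read back in normalised reads, that is reads multiplied by 1 factor per library. The lowest level in the data is 1 normalised read, called the floor. A vas deferens library at the floor held at most 1 whole read, except that the compound Hoxd-null one held none, as did an epididymis library at the floor. WT vas deferens was the most deeply sequenced, at 1.92 times the depth of the epididymis library. Genes were taken as measured if at least 1 male library held 20 normalised reads or more, or if the level was not readable. By that rule 43 of the 49 genes were measured, among 16721 genes in all. The round spermatid genes with a level read back, apart from Pgk2, passed the rule only through a Hoxa-null library or the epididymis. So did the meiotic genes Sycp2, Smc1b, Mael, Ddx4, Dazl and Tdrd6. A gene was called different at a 2-fold difference, or 4-fold for the epididymis. For 7 of the 43, Sycp1, Sycp3, Piwil2, Crem, Tnp2, Odf2 and Gapdhs, only differences between libraries were read.

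Tissue and genotype labels were set beside 3 genes chosen after their values were seen. Akr1b7, which encodes the main secreted protein of the mouse vas deferens, was lower than in WT vas deferens by 1.31 and 1.56 on the log2 scale in the Hoxa-null library and the compound one. It differed by 0.36 in Hoxd-null and -1.15 in compound Hoxd-null, and the epididymis differed from WT vas deferens by -6.01. Hoxa11 differed from WT by -2.30 in Hoxa-null and -3.21 in compound Hoxa-null vas deferens. Hoxd11 differed by -2.48 in Hoxd-null and -1.17 in compound Hoxd-null vas deferens, and by -0.89 in Hoxa-null and -1.45 in compound Hoxa-null, which makes it a weak check of the Hoxd labels.

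Both vas deferens libraries with 2 mutant Hoxa copies carried far more RNA of round spermatid genes than WT and far less RNA of the protamine genes Prm1 and Prm2. In Hoxa-null vas deferens 25 of the 43 measured genes exceeded WT by at least 2-fold and 9 were lower, where 10.7% of all measured genes were higher and 8.38% were lower. In compound Hoxa-null vas deferens 33 were higher and 6 lower, beside 13.9% higher and 8.28% lower over all measured genes. The 3 classes differed in their counts. Of the 19 round spermatid genes 17 were higher and 1 was lower in Hoxa-null and 18 were higher and 1 was lower in compound Hoxa-null vas deferens, whereas of the 11 late spermatid genes none was higher and 7 were lower in Hoxa-null, and 5 were higher and 4 lower in compound Hoxa-null vas deferens. In bulk tissue, more germ cells and more RNA per germ cell cannot be told apart.

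**Figure D1:**
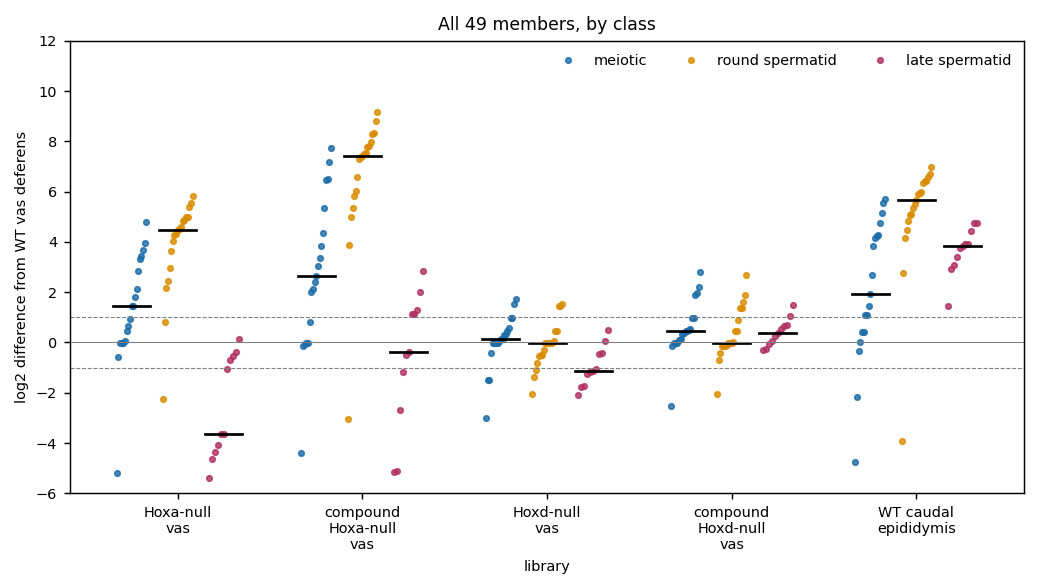
Log2 difference of each of the 49 genes from WT vas deferens (vertical axis) in 4 mutant vas deferens libraries and in WT caudal epididymis; each point is 1 gene, black bars are class medians and dashed lines mark a 2-fold difference. The median of round spermatid genes lies above that of late spermatid genes in both Hoxa-null libraries, at 4.46 and -3.63 in the Hoxa-null one, while in the epididymis both classes lie above 0 except for 1 round spermatid gene.

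The promoters of 6 of the genes are printed first, because a sequence that resembles the cAMP response element is found in genes with different patterns. Prm1 was lower than WT in both Hoxa-null libraries and Tnp1 in Hoxa-null, Gapdhs and Akap4 were higher in compound Hoxa-null, and Actl7a and Actl7b were higher in both. This element is bound by CREM, a transcription factor that in round spermatids drives many genes of sperm formation, and its full form is palindromic. The pattern TGACNTCA was searched on both strands in the 250 bases before the annotated start, in a RefSeq table of mouse promoters (build GRCm38.p6). It was found in 7.49% of the 32851 promoters of the table. That share counts promoters, whereas the counts that follow are of genes with a match in any of their promoters, so the units differ. Of the 49 genes 36 had a promoter there, and the pattern was found in 5 of 9 late spermatid genes (Akap4, Gapdhs, Prm1, Tnp1 and Tssk2), in 3 of 12 round spermatid genes (Actl7a, Actl7b and Lypd4) and in 1 of 15 meiotic genes (Hormad1). The 120 bases before the start follow for 6 of them, 5′ to 3′ on the gene's strand, with the matched letters in capitals.
Prm1: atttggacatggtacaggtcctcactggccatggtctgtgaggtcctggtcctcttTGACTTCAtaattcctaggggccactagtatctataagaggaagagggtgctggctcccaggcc
Tnp1: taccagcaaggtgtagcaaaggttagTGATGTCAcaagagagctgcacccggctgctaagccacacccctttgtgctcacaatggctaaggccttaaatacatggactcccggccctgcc
Gapdhs: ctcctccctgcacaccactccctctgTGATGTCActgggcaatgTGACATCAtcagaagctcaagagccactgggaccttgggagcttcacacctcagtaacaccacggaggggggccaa
Akap4: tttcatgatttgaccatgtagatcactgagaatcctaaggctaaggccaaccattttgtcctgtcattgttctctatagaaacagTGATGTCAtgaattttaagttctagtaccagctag
Actl7a: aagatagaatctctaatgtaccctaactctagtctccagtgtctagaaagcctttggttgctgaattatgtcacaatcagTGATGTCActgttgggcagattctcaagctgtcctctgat
Actl7b: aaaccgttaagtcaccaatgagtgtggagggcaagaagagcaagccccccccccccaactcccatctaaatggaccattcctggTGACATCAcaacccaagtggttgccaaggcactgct
These stretches are chr16:10796824-10796943 (minus strand) for Prm1, chr1:73015900-73016019 (minus) for Tnp1, chr7:30743682-30743801 (minus) for Gapdhs, chrX:7067395-7067514 (plus) for Akap4, chr4:56743302-56743421 (plus) for Actl7a and chr4:56741426-56741545 (minus) for Actl7b. Actl7a and Actl7b are neighbours on chromosome 4 that are read in opposite directions. The pattern begins 64 bases before the start of Prm1, 94 before Tnp1, 35 before Akap4, 40 before Actl7a and 36 before Actl7b, and Gapdhs holds it at 94 and 76 bases. A match is a description of the letters only.

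Among round spermatid genes, the counts of reads show how far the vas deferens libraries lay apart. Over the 18 genes whose reads were read back, the summed reads were 939 in Hoxa-null, 7513 in compound Hoxa-null, 57.0 in Hoxd-null, 71.0 in compound Hoxd-null, 1964 in WT epididymis and 89.6 in WT vas deferens. At most 5 reads were held by 14 of the 18 genes in Hoxd-null, by 15 in compound Hoxd-null and by 15 in WT vas deferens, while in both Hoxa-null libraries and in the epididymis none was that low. The Hoxa-null, compound Hoxa-null and Hoxd-null vas deferens libraries were sequenced in the same lane. Set against the Hoxd-null library of that lane alone, both Hoxa-null libraries were at least 2-fold higher for 28 of the 43 measured genes and lower for 4, where 9.41% and 4.91% of all measured genes were.

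Of all round spermatid genes Pabpc2 differed most from WT in both Hoxa-null libraries. Pabpc2, a germ-cell poly(A)-binding protein, was at 120 normalised reads in Hoxa-null, 1212 in compound Hoxa-null, 5.87 in Hoxd-null, 6.46 in compound Hoxd-null, 265 in epididymis and 2.11 in WT vas deferens. Clgn encodes calmegin, a chaperone that sperm surface proteins need for fertility. It was at 73.7 normalised reads in Hoxa-null, 462 in compound Hoxa-null, the floor in Hoxd-null, 2.58 in compound Hoxd-null, 89.1 in epididymis and 2.55 in WT vas deferens. Ddx25, an RNA helicase needed to complete spermiogenesis, was at 42.2 in Hoxa-null, 317 in compound Hoxa-null, the floor in Hoxd-null, 6.46 in compound Hoxd-null, 95.9 in epididymis and the floor in WT vas deferens. For all 3 genes both Hoxa-null libraries and the epididymis were high and the 3 vas deferens libraries with an intact Hoxa copy were low, with no overlap. Of all measured genes, 4.11% had both Hoxa-null libraries at least 2-fold above those 3 libraries. Pabpc2 was 56.7-fold higher in Hoxa-null than in WT vas deferens (95% exact interval 19.0 to 278) and 574-fold higher in compound Hoxa-null (196 to 2780). Clgn was 28.9-fold higher in Hoxa-null (9.83 to 98.3) and 181-fold higher in compound Hoxa-null vas deferens (63.7 to 605). These intervals cover counting error only, and they are wide because WT held few reads. Against 3 reads in WT, Ddx25 was at least 20-fold higher in Hoxa-null and at least 150-fold higher in compound Hoxa-null vas deferens.

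Genes of the sperm head and of energy metabolism were also higher in both Hoxa-null libraries than in WT, except that Pgk2 missed the 2-fold rule in Hoxa-null. Actl7b and Actl7a encode actin-like proteins of the spermatid head. Actl7b was at 47.0 normalised reads in Hoxa-null, 454 in compound Hoxa-null, 2.94 in Hoxd-null, 2.58 in compound Hoxd-null, 84.5 in epididymis and the floor in WT vas deferens, so at least 22.2-fold higher in Hoxa-null and at least 215-fold higher in compound Hoxa-null than in WT. Actl7a was at 12.9 in Hoxa-null, 116 in compound Hoxa-null, 2.94 in Hoxd-null, 3.88 in compound Hoxd-null, 173 in epididymis and 2.82 in WT vas deferens. Both neighbours were highest in compound Hoxa-null and next in Hoxa-null among the vas deferens libraries, but only Actl7b was higher in compound Hoxa-null vas deferens than in the epididymis. Ldhc and Ldhal6b encode germ-cell lactate dehydrogenases, Gykl1 a glycerol kinase-like protein and Pgk2 the phosphoglycerate kinase that replaces the X-linked enzyme in germ cells. Ldhc was at 196 normalised reads in Hoxa-null, 1155 in compound Hoxa-null, 6.85 in Hoxd-null, 9.05 in compound Hoxd-null, 484 in epididymis and 12 in WT vas deferens. It stood 16.3-fold above WT in Hoxa-null (10.0 to 28.7) and 96.5-fold above it in compound Hoxa-null (60 to 166). Ldhal6b was at 45.4 in Hoxa-null, 353 in compound Hoxa-null, 1.96 in Hoxd-null, 5.17 in compound Hoxd-null, 145 in epididymis and 1.41 in WT vas deferens. Gykl1 was at 22.1 in Hoxa-null, 325 in compound Hoxa-null, the floor in Hoxd-null, 2.58 in compound Hoxd-null, 85.1 in epididymis and the floor in WT vas deferens. For these enzymes no Hoxa-intact vas deferens library reached the level of either Hoxa-null one. Pgk2 differed less. It was at 52.7 normalised reads in Hoxa-null, 441 in compound Hoxa-null, 24.5 in Hoxd-null, 40.1 in compound Hoxd-null, 658 in epididymis and 29.6 in WT vas deferens, so that the Hoxa-null library lay 1.78-fold above WT (1.17 to 2.71), short of the 2-fold rule, and the compound Hoxa-null library 14.9-fold above it (10.9 to 21.0). Pabpc2, Pgk2, Gykl1 and Ldhal6b are copies of genes used in other cells, with which they could share reads, and how such reads were counted is not given.

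Acrosome genes were higher as well, with few reads behind the WT values. Acrv1, an acrosomal vesicle protein, was at 26.7 in Hoxa-null, 121 in compound Hoxa-null, 5.87 in Hoxd-null, 3.88 in compound Hoxd-null, 132 in epididymis and 2.11 in WT vas deferens. Acr, the acrosomal protease acrosin, was at 11.1 in Hoxa-null, 90.8 in compound Hoxa-null, 1.96 in Hoxd-null, 1.29 in compound Hoxd-null, 24.9 in epididymis and 1.41 in WT vas deferens. It stood 7.85-fold above WT in Hoxa-null (1.75 to 72.2) and 64.5-fold in compound Hoxa-null (17.5 to 541). Spaca1, a membrane protein needed to shape the acrosome, was at 23.0 in Hoxa-null, 134 in compound Hoxa-null, 2.94 in Hoxd-null, 3.88 in compound Hoxd-null, 28.4 in epididymis and 4.2 in WT vas deferens. The ratio of Hoxa-null vas deferens to the epididymis was 0.445 for Acr (0.200 to 0.998) and 0.81 for Spaca1 (0.44 to 1.53), and only the interval of Spaca1 includes 1. The other 7 genes of the class, Tcte1, Qrich2, Kif2b, Morc2b, Lypd4, Hdgfl1 and Crem, include sperm tail proteins (Tcte1 and Qrich2) and a kinesin (Kif2b). The first 6 of them were between 19.5 and 42.4 normalised reads in Hoxa-null, between 168 and 333 in compound Hoxa-null and between 33.8 and 113 in the epididymis, against the floor to 1.29 in both Hoxd-null libraries and the floor to 2.11 in WT vas deferens. Crem was the only round spermatid gene that was lower. It differed from WT by -2.23 in Hoxa-null, -3.06 in compound Hoxa-null, -2.05 in Hoxd-null, -2.05 in compound Hoxd-null vas deferens and -3.90 in epididymis on the log2 scale, so WT vas deferens stood above every other male library. Crem is also used in somatic cells, and its germ-cell isoform cannot be read from a value per gene.

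**Figure D2:**
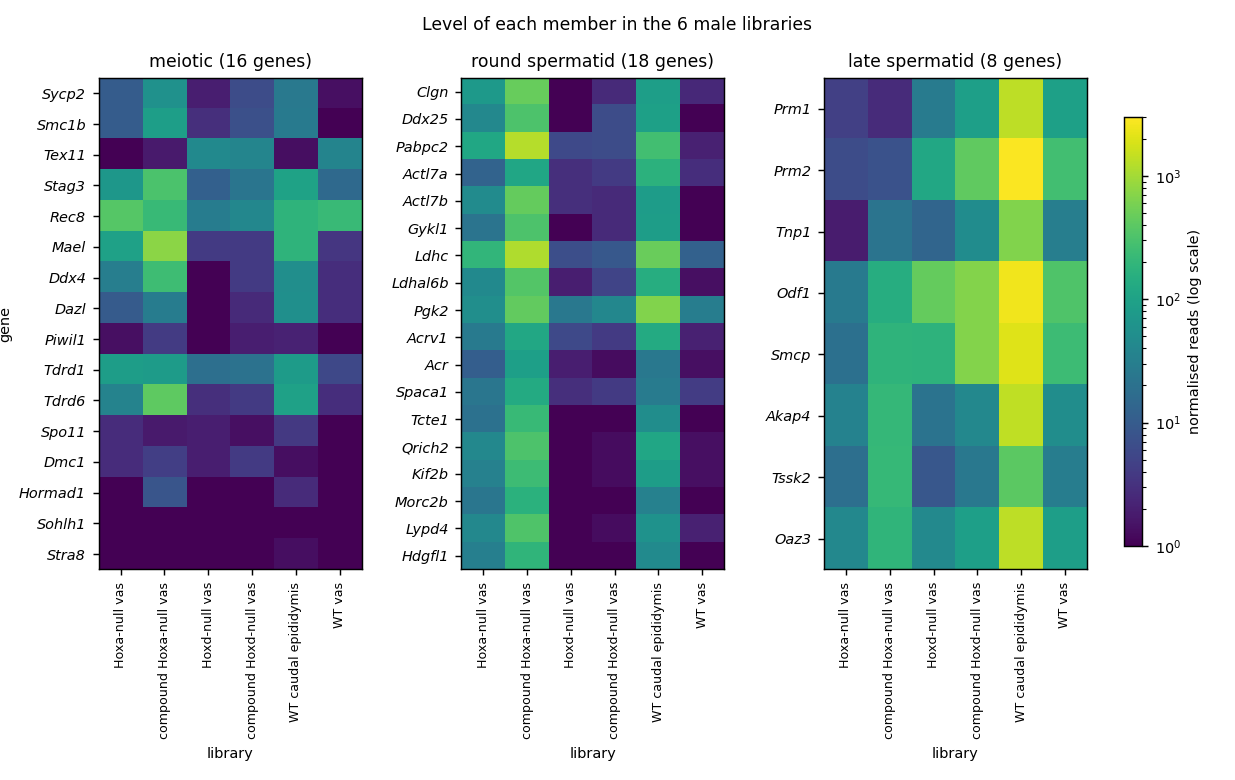
Level in normalised reads (colour, log scale from the floor of 1) of the 42 genes whose level was read or that had no value above the floor, in the 6 male libraries, 1 pooled library each. Round spermatid genes are bright in both Hoxa-null vas deferens libraries and in the epididymis, where all 18 were above 5 reads. They are dark, apart from Pgk2, in the Hoxd-null libraries and WT vas deferens, whereas Prm1 and Prm2 are dark in the Hoxa-null libraries.

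The median difference from WT of the 19 round spermatid genes was 4.46 on the log2 scale in Hoxa-null and 7.41 in compound Hoxa-null vas deferens, beside 0.01 for all measured genes in each. With the 6 genes at the floor in WT set against 3 reads, the medians over the 18 genes with reads were 3.97 and 6.96. The 2 Hoxa-null libraries also differed from each other. The compound library was at least 2-fold higher than the Hoxa-null one for 36 of the 43 measured genes and lower for none, where 7.42% of all measured genes were higher and 1.82% lower. All round spermatid genes but Crem were among the 36, at 4.54-fold (Acrv1, 3.02 to 7.03) to 14.7-fold (Gykl1, 9.71 to 23.2). With 1 pool for each genotype, a difference between genotypes and a difference between pools of animals cannot be told apart.

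**Figure D3:**
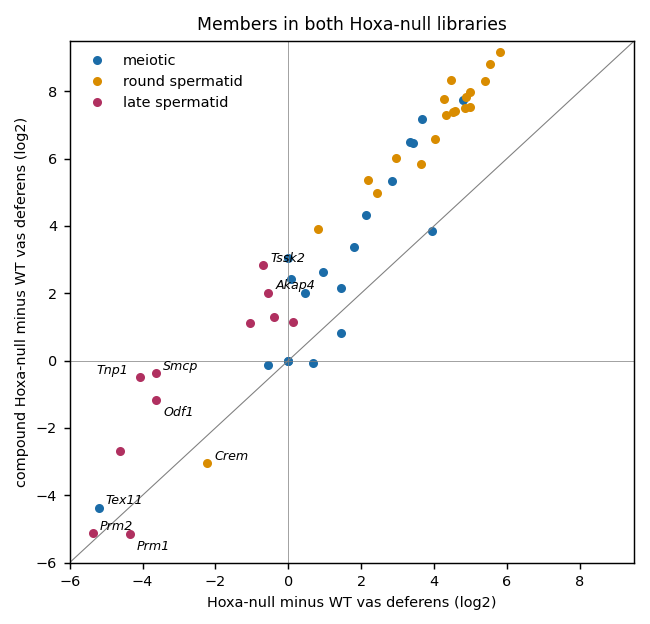
Log2 difference from WT vas deferens in the Hoxa-null library (horizontal axis) and in the compound Hoxa-null library (vertical axis), 1 point per gene; both differences use the same WT library, and the grey diagonal marks equal values. Most points lie above the diagonal, among them 36 of the 43 measured genes by at least 2-fold, while Prm1, Prm2 and Tex11 are low in both libraries.

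The 4 late spermatid genes of this list whose proteins pack the sperm nucleus, Prm1, Prm2, Tnp1 and Tnp2, were at least 2-fold lower than WT in Hoxa-null vas deferens, and all but Tnp1 were in compound Hoxa-null. Prm1, which encodes protamine 1, the protein that replaces histones in the sperm head, was at 4.61 normalised reads in Hoxa-null, 2.65 in compound Hoxa-null, 28.4 in Hoxd-null, 90.5 in compound Hoxd-null, 1355 in epididymis and 93.6 in WT vas deferens. Prm2, protamine 2, was at 6.45 in Hoxa-null, 7.61 in compound Hoxa-null, 122 in Hoxd-null, 424 in compound Hoxd-null, 2826 in epididymis and 266 in WT vas deferens. Both Hoxa-null libraries lay below the other 3 vas deferens libraries for both protamines, with no overlap. Of all measured genes, 2.26% had both at least 2-fold below those 3 libraries. Prm1 stood at 0.049 of the WT level in Hoxa-null (0.016 to 0.118) and at 0.028 in compound Hoxa-null vas deferens (0.0058 to 0.0846), and Prm2 at 0.024 in Hoxa-null (0.0097 to 0.0505) and 0.029 in compound Hoxa-null (0.014 to 0.058). Tnp1 encodes transition protein 1, which precedes the protamines on the chromatin. It was at 1.84 normalised reads in Hoxa-null, 21.8 in compound Hoxa-null, 13.7 in Hoxd-null, 49.5 in compound Hoxd-null, 659 in epididymis and 30.9 in WT vas deferens, so that among the vas deferens libraries the Hoxa-null one was furthest from WT, at 0.06 of its level (0.007 to 0.228), while the compound Hoxa-null one was at 0.71 (0.42 to 1.19). Tnp2, transition protein 2, differed from WT by -4.62 in Hoxa-null, -2.67 in compound Hoxa-null, -2.07 in Hoxd-null, 0.25 in compound Hoxd-null vas deferens and 3.90 in epididymis.

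Of the other late genes, which serve the tail, its energy supply and late signalling, Odf1, Smcp and Oaz3 were at least 2-fold lower than WT in Hoxa-null vas deferens. In compound Hoxa-null vas deferens Akap4, Tssk2, Oaz3, Gapdhs and Odf2 exceeded WT by 2-fold or more, and Odf1 was lower. Odf1, a protein of the outer dense fibres, was at 26.7 normalised reads in Hoxa-null, 146 in compound Hoxa-null, 459 in Hoxd-null, 684 in compound Hoxd-null, 2488 in epididymis and 327 in WT vas deferens. That is 0.081 of WT in Hoxa-null (0.054 to 0.119) and 0.45 in compound Hoxa-null (0.37 to 0.53). Smcp, a protein of the mitochondrial capsule of sperm, was at 19.3 in Hoxa-null, 185 in compound Hoxa-null, 177 in Hoxd-null, 676 in compound Hoxd-null, 2007 in epididymis and 239 in WT vas deferens, so that Hoxa-null stood at 0.081 of WT (0.049 to 0.125) and compound Hoxa-null at 0.77 (0.65 to 0.92). Akap4 encodes the main scaffold of the fibrous sheath. It was at 35.0 in Hoxa-null, 206 in compound Hoxa-null, 21.1 in Hoxd-null, 41.4 in compound Hoxd-null, 1376 in epididymis and 50.7 in WT vas deferens, so the compound Hoxa-null library stood 4.06-fold (3.11 to 5.37) above WT and the Hoxa-null library at 0.69 of it (0.45 to 1.04). Tssk2, a testis kinase of late spermatids, was at 18.4 in Hoxa-null, 211 in compound Hoxa-null, 8.80 in Hoxd-null, 24.6 in compound Hoxd-null, 403 in epididymis and 29.6 in WT vas deferens, 7.15-fold (5.13 to 10.2) above WT in compound Hoxa-null. Oaz3, the germ-cell antizyme that limits polyamines, was at 42.4 in Hoxa-null, 191 in compound Hoxa-null, 42.7 in Hoxd-null, 92.7 in compound Hoxd-null, 1334 in epididymis and 88.1 in WT vas deferens. For Akap4, Tssk2 and Oaz3 the compound Hoxa-null library was the highest of the 5 vas deferens libraries. The Hoxa-null one lay between the others for Akap4 and Tssk2 and beside the Hoxd-null one for Oaz3. Gapdhs, the sperm glyceraldehyde phosphate dehydrogenase, differed from WT by -0.38 in Hoxa-null, 1.28 in compound Hoxa-null, -0.43 in Hoxd-null, 0.52 in compound Hoxd-null vas deferens and 4.77 in epididymis. Odf2, a tail protein that is also a part of centrosomes in other cells, differed by 0.12 in Hoxa-null, 1.15 in compound Hoxa-null, 0.06 in Hoxd-null, 0.38 in compound Hoxd-null vas deferens and 1.45 in epididymis.

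**Figure D4:**
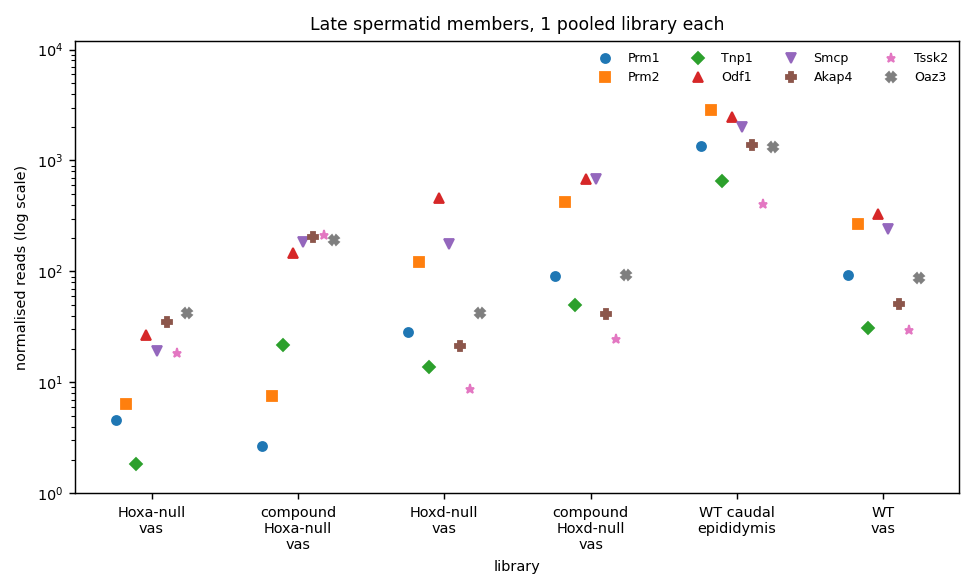
Normalised reads (log axis) of the 8 late spermatid genes whose level was read, in 5 vas deferens libraries and WT caudal epididymis, 1 pooled library each. Prm1 and Prm2 are below 8 normalised reads in both Hoxa-null libraries and above 28 in the others, while all 8 genes are highest in the epididymis.

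Both Hoxa-null libraries were at least 2-fold above all 3 vas deferens libraries with an intact Hoxa copy for 23 of the 43 measured genes and below them for 4, where 4.11% and 2.26% of all measured genes did so. The 23 were 17 round spermatid and 6 meiotic genes, and the 4 were Prm1, Prm2, Odf1 and the meiotic gene Tex11. Without the compound Hoxa-null library 7 genes were below, and without the Hoxa-null library 31 were above.

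Most measured meiotic genes were also high in both Hoxa-null libraries, with 8 of 13 higher and 1 lower in Hoxa-null and 10 higher and 1 lower in compound Hoxa-null vas deferens. The shares of all measured genes were 10.7% higher and 8.38% lower in Hoxa-null, and 13.9% higher and 8.28% lower in compound Hoxa-null. Of all 19, 6 genes, Stra8 and Sohlh1 (which act at the entry into meiosis), Spo11 and Dmc1 (which cut DNA and repair the break by strand exchange), Hormad1 (a chromosome axis protein) and Piwil1 (a piRNA-binding protein), did not count as measured. None of them was above 8.23 normalised reads in any male library, which was the value of Hormad1 in compound Hoxa-null vas deferens, and Sohlh1 had no value above the floor. Mael, a protein of the germ-cell granules that protects the genome from transposons, stood furthest above WT. It was at 98.5 normalised reads in Hoxa-null, 754 in compound Hoxa-null, 3.91 in Hoxd-null, 3.88 in compound Hoxd-null, 182 in epididymis and 3.52 in WT vas deferens. That is 28.0-fold above WT in Hoxa-null (11.6 to 87.9) and 214-fold in compound Hoxa-null (91.4 to 661).

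The other granule and RNA-binding genes are given next. Tdrd6, a scaffold of the chromatoid body, was at 35.9 in Hoxa-null, 407 in compound Hoxa-null, 2.94 in Hoxd-null, 3.88 in compound Hoxd-null, 98.6 in epididymis and 2.82 in WT vas deferens. Ddx4, the germ-line RNA helicase VASA, was at 30.4 in Hoxa-null, 249 in compound Hoxa-null, the floor in Hoxd-null, 3.88 in compound Hoxd-null, 52.4 in epididymis and 2.82 in WT vas deferens. Dazl, a germ-cell translation regulator, was at 9.91 in Hoxa-null, 29.3 in compound Hoxa-null, the floor in Hoxd-null, 2.58 in compound Hoxd-null, 54.0 in epididymis and 2.82 in WT vas deferens. All 3 were higher in both Hoxa-null libraries than in the other vas deferens libraries without overlap, as were 4.11% of all measured genes at 2-fold. Tdrd1, another Tudor-domain protein of the piRNA pathway, was at 87.5 in Hoxa-null, 81.8 in compound Hoxa-null, 18.6 in Hoxd-null, 20.7 in compound Hoxd-null, 81.0 in epididymis and 5.63 in WT vas deferens. Unlike the other 3 it did not stand above the Hoxa-null library in the compound one, with a ratio of compound Hoxa-null to Hoxa-null of 0.94 (0.69 to 1.25). Piwil2, a piRNA-binding protein, differed from WT by 0.95 in Hoxa-null, 2.64 in compound Hoxa-null, 0.33 in Hoxd-null, 0.37 in compound Hoxd-null vas deferens and 5.53 in epididymis.

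Cohesin and synaptonemal complex genes were less uniform. Smc1b, a meiotic cohesin, was at 10.1 normalised reads in Hoxa-null, 89.7 in compound Hoxa-null, 2.94 in Hoxd-null, 6.95 in compound Hoxd-null, 27 in epididymis and the floor in WT vas deferens. Stag3, its partner in the cohesin ring, was at 68.3 in Hoxa-null, 312 in compound Hoxa-null, 11.7 in Hoxd-null, 22.5 in compound Hoxd-null, 99.9 in epididymis and 15.4 in WT vas deferens. Sycp2, of the lateral element, was at 10.1 in Hoxa-null, 57.3 in compound Hoxa-null, 1.96 in Hoxd-null, 6.46 in compound Hoxd-null, 25.4 in epididymis and 1.41 in WT vas deferens. These 3 were again highest in compound Hoxa-null vas deferens. Rec8, the meiotic kleisin of the same ring, had another pattern. It was at 368 normalised reads in Hoxa-null, 220 in compound Hoxa-null, 29.1 in Hoxd-null, 40.1 in compound Hoxd-null, 182 in epididymis and 230 in WT vas deferens, so that both Hoxd-null libraries were low and the others were not. Rec8 stood at 0.13 of WT in Hoxd-null (0.08 to 0.19) and 0.17 in compound Hoxd-null (0.12 to 0.25). Tex11, an X-linked gene needed for crossing over, ran the other way: it was at the floor in Hoxa-null, 1.77 in compound Hoxa-null, 45.2 in Hoxd-null, 38.8 in compound Hoxd-null, 1.35 in epididymis and 36.6 in WT vas deferens, lower by at least 13.3-fold in Hoxa-null than in WT. Sycp1, of the transverse filaments, differed from WT by 0.07 in Hoxa-null, 2.41 in compound Hoxa-null, 0.57 in Hoxd-null, 0.97 in compound Hoxd-null vas deferens and 1.11 in epididymis. Sycp3, of the lateral element, differed by -0.57 in Hoxa-null, -0.15 in compound Hoxa-null, 0.16 in Hoxd-null, 0.35 in compound Hoxd-null vas deferens and -2.17 in epididymis. Over all 19 meiotic genes the median difference from WT was 1.46 in Hoxa-null and 2.64 in compound Hoxa-null vas deferens. Over the 10 and 13 of them with a ratio, those at the floor in 1 library set against 3 reads, it was 2.55 and 3.86.

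Round spermatid genes were not high in Hoxd-null or compound Hoxd-null vas deferens. In Hoxd-null 5 of the 43 measured genes exceeded WT by 2-fold or more and 13 were lower, where 3.26% and 4.82% of all measured genes were, and in compound Hoxd-null 10 were higher and 2 lower, where 7.59% and 5.13% were. All 3 round spermatid genes called higher in Hoxd-null and all 5 in compound Hoxd-null vas deferens rested on at most 6 and 5 reads. Of the 13 genes called lower in Hoxd-null, Ddx4, Dazl, Clgn and Lypd4 were at the floor there and had at most 4 reads in WT vas deferens, too few to show a decrease. The median differences from WT of round spermatid genes were -0.01 in Hoxd-null and 0.00 in compound Hoxd-null. Of the 11 late spermatid genes 7 were lower in Hoxd-null, with a class median of -1.12, and none was in compound Hoxd-null, with a median of 0.38. Prm1 in Hoxd-null vas deferens stood at 0.30 of WT (0.20 to 0.46), and Smcp in compound Hoxd-null at 2.82-fold (2.46 to 3.25). The compound Hoxd-null library was at least 2-fold above the Hoxd-null one for 15 genes, 7 of them late spermatid genes, and below it for none, where 7.83% of all measured genes were above and 3.74% below. These 2 libraries came from different sequencing runs.

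The WT caudal epididymis, which stores sperm, was higher than WT vas deferens for all 3 classes. At least a 4-fold difference was found for 37 genes that were higher and 3 that were lower (Sycp3, Tex11 and Crem), where 9.38% of all measured genes were higher and 3.87% lower. Over all genes of each class, unmeasured ones included, the medians were 1.91 for meiotic, 5.68 for round spermatid and 3.86 for late spermatid genes. Over those with a ratio, a WT vas deferens library at the floor set against 3 reads, they were 4.01 for 10 meiotic genes. They were 5.33 for 18 round spermatid and 3.81 for 8 late spermatid genes. The order of the meiotic and late medians thus depends on the genes counted. All 11 late spermatid genes had their highest male level in the epididymis, whereas 15 of the 19 round spermatid genes and 7 of the 13 measured meiotic genes had it in compound Hoxa-null vas deferens. Set against the epididymis, compound Hoxa-null vas deferens was at least 2-fold higher for 15 round spermatid genes and lower for none, and lower for 9 of the 11 late spermatid genes and higher for none. Over all measured genes 11.3% were higher and 9.73% lower. Hoxa-null vas deferens was lower than the epididymis for 12 round spermatid genes and for all 11 late ones, and higher for 1 round spermatid gene, Crem, where 13.1% of all measured genes were lower and 8.38% higher. Clgn showed the contrast with Prm1 in single genes: compound Hoxa-null vas deferens stood 5.19-fold (4.01 to 6.81) above the epididymis for Clgn and at 0.0020 of it (0.00040 to 0.0057) for Prm1. The 4 comparisons with WT vas deferens and the 2 with the epididymis share those libraries, so they are not independent of each other. The epididymis library came from another sequencing run than WT vas deferens and both Hoxa-null libraries. Tissue and run cannot be told apart in these comparisons.

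Other genes of the same stages were counted from lists chosen with earlier results of these data known. Spata16, Adam3, Pdha2, Zpbp2, Tssk1, Odf4, Ropn1, Capza3, Gtsf1, Syce1, Taf7l and Ccna1 counted as measured only through a Hoxa-null library or the epididymis. Over all measured genes 10.7% were higher and 8.38% lower in Hoxa-null, and 13.9% were higher and 8.28% lower in compound Hoxa-null. Of 24 measured genes of round spermatids and the acrosome, 11 were higher and 2 lower in Hoxa-null and 19 were higher and 2 lower in compound Hoxa-null vas deferens, with medians of 0.51 in Hoxa-null and 2.63 in compound Hoxa-null. Spata16, an acrosome formation gene, was at 18.4 normalised reads in Hoxa-null, 221 in compound Hoxa-null, the floor in Hoxd-null, 2.58 in compound Hoxd-null, 56.1 in epididymis and 1.41 in WT vas deferens. Adam3, which sperm need to enter the oviduct, was at 73.6 and 485 in Hoxa-null and compound Hoxa-null vas deferens against 4.23 in WT. Pdha2 was at 6.45 normalised reads in Hoxa-null and 99.9 in compound Hoxa-null, against the floor in WT. Zpbp2 differed from WT by 3.60 in Hoxa-null and 6.52 in compound Hoxa-null vas deferens.

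Of 26 measured genes of late spermatids and the tail, 10 were higher and 3 lower in Hoxa-null vas deferens. In compound Hoxa-null 19 were higher and 2 lower, to be read beside the shares of all measured genes just given. These counts are unlike those of the 11 late spermatid genes above, of which none was higher in Hoxa-null. Tssk1, a partner of Tssk2, was at 65.8 in Hoxa-null, 338 in compound Hoxa-null, 2.94 in Hoxd-null, 18.1 in compound Hoxd-null, 112 in epididymis and 2.82 in WT vas deferens. Odf4, of the outer dense fibres, differed from WT by 3.45 in Hoxa-null and 6.31 in compound Hoxa-null. Ropn1, of the fibrous sheath, was at 8.29 normalised reads in Hoxa-null and 73.4 in compound Hoxa-null, and Capza3, an actin-capping protein, at 3.68 in Hoxa-null and 60.5 in compound Hoxa-null, both against the floor in WT vas deferens. The low values were thus found for some genes of the late class, Prm1 and Prm2 among them, and not for all genes of late spermatids. Of 24 measured genes of meiosis and the piRNA pathway, 8 were higher in Hoxa-null and 9 in compound Hoxa-null vas deferens, none was lower, and Gtsf1, Syce1, Taf7l and Ccna1 differed most in compound Hoxa-null. Gtsf1, a piRNA pathway gene, differed from WT by 3.62 in Hoxa-null and 6.87 in compound Hoxa-null, and Syce1, of the synaptonemal complex, by 3.92 in Hoxa-null and 6.75 in compound Hoxa-null. Taf7l was at 2.76 normalised reads in Hoxa-null and 60.1 in compound Hoxa-null, against the floor in WT. The meiotic cyclin Ccna1 differed by 1.79 in Hoxa-null and 5.41 in compound Hoxa-null vas deferens.

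Genes of other cell types were counted in the same libraries. Over all measured genes 10.7% were higher and 8.38% lower in Hoxa-null, and 13.9% were higher and 8.28% lower in compound Hoxa-null. Genes of the epididymis, seminal vesicle, cilia and smooth muscle also differed from WT in the Hoxa-null libraries, and their part in the germ-cell results was not tested. The epididymal sum given below was lower in compound Hoxa-null than in Hoxa-null, unlike the summed reads of round spermatid genes. Among spermatogonial genes, Nanos2 and Rhox13 had no value above the floor in any male library, and Utf1, Lin28a and Sohlh2 were under the minimum. Of 7 measured genes of the list 2 were higher and 2 lower in Hoxa-null vas deferens and 3 higher and 2 lower in compound Hoxa-null. Ret was at 388 normalised reads in Hoxa-null and 775 in compound Hoxa-null, against 184.5 in WT. Sall4 was also higher than WT in both, by 1.49 in Hoxa-null and 2.17 in compound Hoxa-null. Gfra1 was lower in both, differing by -1.98 in Hoxa-null and -1.21 in compound Hoxa-null. For Sertoli cells, Amh and Tsx were under the minimum, and 1 of 7 measured genes was higher and 1 lower in each Hoxa-null library. For Leydig cells, Hsd3b1 and Hsd3b6 had no value above the floor and Lhcgr was under the minimum. Of 5 measured genes 2 were higher and 1 lower in each Hoxa-null library. Hsd17b3 differed from WT by 5.93 in Hoxa-null, 4.42 in compound Hoxa-null, 2.60 in Hoxd-null, 3.17 in compound Hoxd-null vas deferens and 4.45 in epididymis. Cyp17a1 differed by 2.85, 5.85, 0.43, 1.35 and 8.45 in the same order. The lower gene was Insl3 in Hoxa-null (-1.61) and Cyp11a1 in compound Hoxa-null (-1.58).

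Epididymal genes were higher in Hoxa-null vas deferens for 8 of 10 measured genes and lower for 1. In compound Hoxa-null they were higher for 7 and lower for 2. The shares of all measured genes just given apply to the counts here too. Gpx5, a secreted glutathione peroxidase of the epididymis, was at 664 normalised reads in Hoxa-null, 409 in compound Hoxa-null, 13.7 in Hoxd-null, 235 in compound Hoxd-null, 499.7 in epididymis and 20.4 in WT vas deferens. The summed level of the 10 genes of that list with a level was 1327 in Hoxa-null, 831 in compound Hoxa-null, 316 in Hoxd-null, 643 in compound Hoxd-null, 4128 in epididymis and 342 in WT vas deferens. Gpx5 and Lcn12, at 207 in compound Hoxd-null and 107 in WT vas deferens, made up most of the sum in compound Hoxd-null. Of 6 seminal vesicle genes 5 were higher in Hoxa-null and 4 in compound Hoxa-null vas deferens, among them Svs4, by 3.57 in Hoxa-null and 3.11 in compound Hoxa-null. Of 14 measured genes of motile cilia 4 were higher and 2 lower in Hoxa-null, and 11 were higher and 2 lower in compound Hoxa-null. Tekt1, a tektin of cilia that sperm tails also hold, differed most, at 27.6 normalised reads in Hoxa-null and 221 in compound Hoxa-null against the floor in WT. Smooth muscle genes were lower, 4 of 9 in Hoxa-null and 6 of 9 in compound Hoxa-null vas deferens, with medians of -0.95 in Hoxa-null and -1.34 in compound Hoxa-null.

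The female libraries hold no male germ cells. Only 18 of the 49 genes were measured there. At least 2-fold, 3 genes were higher and 1 was lower in Hoxa-null uterus, where 5.87% and 7.24% of all genes measured in females were. In compound Hoxa-null uterus 3 were higher and 2 lower (8.32% and 6.79%). In Hoxd-null 4 were higher and 2 lower (6.05% and 5.77%), and in compound Hoxd-null 4 were higher and 3 lower (7.84% and 6.27%). The share of the 18 genes that was higher thus exceeded that of all measured genes in each mutant uterus. Sycp1, Sycp2 and Gapdhs were among the higher genes in all 4 mutant uteri. In WT uterus Sycp1 was at 2.19 normalised reads and Sycp2 at 1.10. At 4-fold, WT oviduct was above WT uterus for 7 genes and below it for 3, where 8.81% and 3.49% of all measured genes were. Tcte1 was at 1775 normalised reads in WT oviduct, which has motile cilia, and at the floor in all 5 uteri. Qrich2 was at 63.2 in oviduct and 9.87 in WT uterus. Ldhc and Dazl were at 30.3 and 26.8 in oviduct and at the floor in WT uterus. Some of the genes thus had RNA in tissue without male germ cells. Of the 19 round spermatid genes only 5 were measured in females. The others were at 6.04 normalised reads or less in every uterus library, the Hoxa-null ones included. Differences from WT uterus thus say little about this class beyond these low levels.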

How the data were processed

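Per the submitters' processing notes, the authors used TopHat and the mouse build mm9; how reads were counted and normalised, and with which annotation, is not given in the sources used here. The authors deposited log2 values, 1 column per library, with each gene's median over the 6 libraries of its sex at 0, so levels are not in the files. Levels were read back with Python 3.11.15, numpy 2.4.6 and pandas 2.3.3 by matching each gene's values to a grid of reads times 1 factor per library (1 read was worth 0.704 to 1.35 normalised reads in the male libraries). The reading was tested on simulated data, where most levels were read correctly and a few were not. Library shifts of at most 0.00686 were removed. Counting intervals are exact, at 95%, and ratios against a library at the floor used 3 reads. The 49 genes and all lists were chosen with earlier results of these data known. Values are given for every measured late spermatid gene, for the meiotic and round spermatid genes that differ most from WT in a Hoxa-null vas deferens, and for up to 4 genes of each other list by the same rule, as levels where WT was at the floor. The plan had assumed 1 library per group and no test, and log2 differences were used without a pseudocount. Counts were repeated with other scalings, minimum levels, folds, reference libraries and left-out libraries.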

Additional observations from a re-analysis of the deposited data

Results flagged for a closer look

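Ddx4 had differences of opposite direction in the male and female tissue. In the vas deferens it was higher than WT by 3.42 on the log2 scale in Hoxa-null and by 6.46 in compound Hoxa-null, whereas in the uterus it differed from WT by -2.17 in Hoxa-null and -4.09 in compound Hoxa-null. Compound Hoxd-null uterus was also below WT uterus, by -3.22, and Hoxd-null uterus differed by -0.31. WT uterus held 34.0 normalised reads of Ddx4 and WT vas deferens 2.82. The difference between the tissues was not tested, since there was 1 library per tissue and genotype.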

How the results depend on the processing

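Of 140 values recomputed under other settings, 128 stayed on the same side and close to their value, 11 moved and 1 reversed. The counts of both Hoxa-null libraries against WT stayed within 1.5 times under each scaling, minimum level, fold and reference tried. Their class medians, recomputed under the scalings, without genes also known from somatic cells and with the other reference, moved little, except that the meiotic median in Hoxa-null was 0.97 with the mean of the 3 Hoxa-intact libraries as reference. At 3-fold the Hoxd-null counts went down to 1 higher and 5 lower, and the compound Hoxd-null count of higher genes to 6. With the mean of the 3 Hoxd-intact libraries in place of WT, a mean that includes both Hoxa-null libraries, 29 genes were lower in Hoxd-null and 24 in compound Hoxd-null. Under that reference the meiotic, round spermatid and late spermatid medians were -0.89, -3.97 and 0.35 in Hoxd-null, the last reversed, and -0.53, -3.38 and 2.21 in compound Hoxd-null. Leaving out each vas deferens library in turn, 23 to 31 genes were above and 4 to 7 below in the Hoxa-null libraries that were kept. Under this rule, leaving a library out can only add genes, so the 23 and the 4 had to remain. These counts, which are among the 140 values, are therefore no check of those genes. The largest shift under trimmed-mean scaling was 0.0186. No paired analysis was possible because each group has 1 library. Depth limits the ratios against WT, where 15 of 18 round spermatid genes held at most 5 reads.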

Other observations

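Late spermatid genes differed among themselves within the list of other late spermatid genes too. Spata3 was at the floor in Hoxa-null, 2.65 normalised reads in compound Hoxa-null and 406 in the epididymis, against 16.2 in WT vas deferens. Prm3, unlike Prm1 and Prm2, was not lower than WT: it was at the floor in Hoxa-null, 26.1 in compound Hoxa-null and the floor in WT vas deferens. Hils1, a histone of spermatids, differed from WT by 1.05 in Hoxa-null and 5.35 in compound Hoxa-null. Fscn3 was at the floor in all 4 mutant vas deferens libraries and at 174 normalised reads in the epididymis, against 7.75 in WT vas deferens. These 4 genes were chosen after their values were seen.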
